A study of Mus musculus and Homo sapiens with 18 samples.

Results

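Binding of the guide Nanog-sg3 was compared between 20 ug and 2 ug of guide in mouse embryonic stem (ES) cells, by the positions, widths, spacing and chromosomes of the deposited peaks. The 2 libraries were 2 of the 18 samples of the series, chosen by their labels: stable dCas9 cells given 20 ug of Nanog-sg3, in the library whose title names that amount, and the same cells given 2 ug. Both came from V6.5 cells, an ES line of C57BL/6-129 strain, that carried a stably integrated gene for dCas9. Both were transfected with sgRNA Nanog-sg3 by a lipid reagent and immunoprecipitated with an anti-HA antibody, so the amount of guide was the difference between them that the labels name. The labels do not say whether the dCas9 line was 1 clone, nor from which promoter dCas9 was made. The list of the no-sgRNA immunoprecipitate of these cells was not analysed here. There was 1 library per dose, so no test between doses was made. A second stable library at 20 ug (replicate 1 in accession order, called the other 20 ug library here) took no part in the split into shared and unshared peaks and served as a further list. The labels do not say whether it came from a separate culture.

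Cas9 finds DNA through a guide RNA whose end nearest the protospacer-adjacent motif, called the seed, pairs first, and the protein needs that short motif beside the target. dCas9 has lost the cutting activity and stays bound, so that chromatin immunoprecipitation of its HA tag with sequencing of the DNA (ChIP-seq) shows where it was held, at full targets and at sites with partial pairing. Nanog encodes a homeobox transcription factor that marks pluripotent cells. A peak here is a stretch that the authors' peak caller listed, with a score of the authors that has no unit or name in the file. A peak was called shared when it had at least 1 bp in common with a peak of the other dose, and otherwise 20 ug-only or 2 ug-only. Read depth is unknown, since the lists hold no read counts. All positions are in mm9, counted from 1. Intervals on shares are exact Clopper-Pearson 95% intervals, and those on medians are 95% binomial order-statistic intervals. Both cover counting error only and treat peaks as independent, which neighbouring peaks may not be.

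The 20 ug list was the longer one and held most, but not all, of the sites listed at 2 ug. It held 5862 peaks against 2698 at 2 ug, a ratio of 2.17. Of the 20 ug peaks, 1789 were also listed at 2 ug, a share of 30.5% (29.3 to 31.7%), and 4073 were 20 ug-only. Of the 2 ug peaks, 1811 were also listed at 20 ug, a share of 67.1% (65.3 to 68.9%), and 887 were 2 ug-only. For comparison at the same dose, 62.2% of the 20 ug peaks (60.9 to 63.4%) were found in the other 20 ug library, a list of 5957 peaks. Many peaks were thus unshared between libraries of 1 dose as well, and the part of dose in the unshared peaks was not tested. The lists covered 6.36 Mb at 20 ug and 1.79 Mb at 2 ug. They had 1104 kb in common, which was 17.3% of the 20 ug sequence and 61.8% of the 2 ug sequence.

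A list of similar length made with another guide served as background. The Phc1-sg1 list, from the same line at 20 ug, held 2948 peaks, close in number to the 2 ug list. Only 14 of the 5862 Nanog-sg3 peaks at 20 ug met a Phc1-sg1 peak (0.239%, 0.131 to 0.4%). At 2 ug it was 3 of 2698 (0.111%, 0.0229 to 0.325%). For the shorter list of Phc1-sg2, with 663 peaks, it was 2 peaks at 20 ug (0.0341%) and 1 at 2 ug (0.0371%). Sharing between the doses of Nanog-sg3 was thus far above the sharing with another guide in the same cells, and the intervals lay far apart.

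The shares depend on what counts as shared. When the overlap had to reach 50% of both peaks, 13.8% of the 20 ug peaks and 29.9% of the 2 ug peaks were shared. A peak narrower than 50% of its partner cannot meet this rule, even at the same site. These lower shares thus also reflect the widths of the peaks, by an amount that was not tested. When as many of the strongest 20 ug peaks were taken as the 2 ug list holds, 49.6% of them were shared. With the other 20 ug library in place of the first choice, 25.2% of its peaks were listed at 2 ug and 56.3% of the 2 ug peaks were found in it.

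Nearly every shared site was wider at 20 ug than at 2 ug, and the 2 ug peak lay within the 20 ug peak. Each peak was paired with the peak of longest overlap in the other list where each was the best partner of the other, which gave 1788 pairs. The 20 ug peak was the wider one in 1768 of them (98.9%, 98.3 to 99.3%). Its width was 2.09 times that of its partner at the median (2.04 to 2.15, with the middle of the pairs from 1.63 to 2.83). In 1627 pairs (91%, 89.6 to 92.3%) the whole 2 ug peak lay inside the 20 ug peak. In 4 pairs the 20 ug peak lay inside the 2 ug peak, and 157 pairs overlapped in part. The middles of paired peaks were 95.75 bp apart at the median, and 1345 pairs (75.2%) had them within 200 bp. With the other 20 ug library the median ratio was 2.1. Median widths of whole lists were not in the order of the amount of guide. In the stable cells they were 946 and 859 bp in the 20 ug list and the other 20 ug library, and 592 bp at 2 ug. The lists at 0.2 ug (166 peaks) and 0.02 ug (122 peaks) had medians of 532.5 and 602 bp. The transient library (wild-type V6.5 cells given 20 ug of dCas9 and 20 ug of Nanog-sg3) had a median width of 365 bp. It also differed in how dCas9 was given and in list length (16119 peaks), whose part in width was not tested.

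Splitting of a broad peak into several was rare. Of the shared 20 ug peaks, 1767 met 1 peak at 2 ug, 21 met 2 and 1 met 3. The peak that met 3 was the widest of the 20 ug list, at chr10:79609359-79616120, with a width of 6762 bp and a score of 204.83. The transient library also listed 3 peaks inside it. The other 20 ug library, from the same stable cells, listed a single peak there, at chr10:79613636-79614844, with a width of 1209 bp and a score of 76.86. Only 1 peak at 2 ug met 2 peaks at 20 ug. The widest 2 ug peak, at chr8:97875415-97877909, was 2495 bp wide and was 1 of the 20 sites that were narrower at 20 ug, with 2197 bp there.

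Width and sharing went in opposite directions in the lists. At 20 ug the shared peaks were wider than the rest, with a median of 1137 bp (1114 to 1168 bp) against 865 bp (852 to 875 bp) for 20 ug-only peaks. At 2 ug the shared peaks were narrower, with a median of 540 bp (527 to 556 bp) against 718 bp (691 to 744 bp) for 2 ug-only peaks. This held on single chromosomes, since shared peaks had the larger median width on 20 of 20 chromosomes at 20 ug and on 1 of 20 at 2 ug. Under the 50% rule the 2 ug order turned round. The ratio of medians for 2 ug-only over shared peaks was 0.81, against 1.33 under the 1 bp rule. A peak narrower than 50% of its partner cannot meet the 50% rule, and the part of this in the turn was not tested. With sharing decided by 400 bp windows around the peak middles, the same for all peaks, the ratio was 1.32. At 20 ug the ratio of medians for shared over 20 ug-only peaks was 1.31 under the 1 bp rule. It was smaller with these windows, 1.23, and with middles within 200 bp, 1.15.

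**Figure D1:**
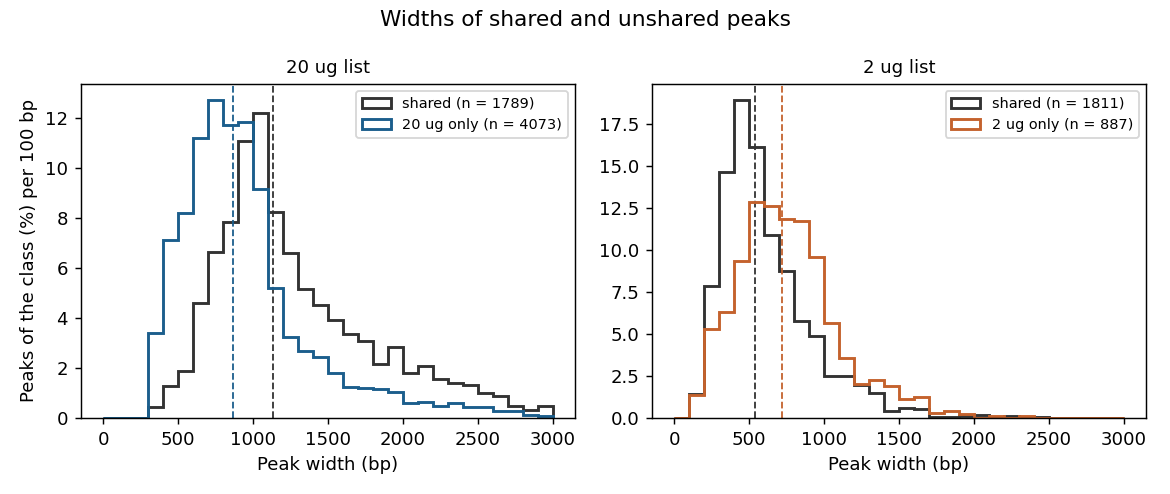
Histograms of peak width in bp, in bins of 100 bp, as the percent of each class, with dashed lines at the class medians; peaks above 3000 bp are not drawn. Shared peaks lie to the right of 20 ug-only peaks in the 20 ug list (medians 1137 and 865 bp) and to the left of 2 ug-only peaks in the 2 ug list (540 and 718 bp).

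Peaks with a higher score were shared more often in both lists. Ranks and groups by score take the scores of a list as being on 1 scale, which no source states and which repeated peak names and uneven chromosome medians leave in doubt. With the 20 ug peaks put in order of score and split into 10 groups of nearly equal size, 7.67% of the lowest group (scores up to 66.72) were found at 2 ug. The share was higher at each step, with 25.1% in the sixth group and 79.2% in the highest (scores from 337.88). At 2 ug the lowest group was already shared in 43.3% of cases (37.3 to 49.5%), and the highest in 89.6% (85.4 to 93%). The 2 ug list thus spanned a narrower range of shares, with 1 step down between the second group (57%) and the third (51.5%). Score medians differed between chromosomes, as described among the other observations, so the groups were also formed within each chromosome, which does not settle the scale within a chromosome. Of the 4 groups made that way the lowest was shared in 9.47% and the highest in 63.8% at 20 ug, and in 49% and 87.4% at 2 ug. The highest group was shared more often than the lowest on 20 of 20 chromosomes in both lists.

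By width the lists ran in opposite directions. At 20 ug the share went from 6.64% of the narrowest of 10 groups (301 to 540 bp) to 55.9% of the widest (from 1835 bp). At 2 ug it was highest in the second narrowest group (319 to 397 bp, 84.1%) and was 49.3% in the ninth (897 to 1092 bp). The narrowest 2 ug peaks, up to 319 bp, had a lower median score than the second group (92.28 against 118) and were shared in 74.4%. With 400 bp windows the widest 20 ug group was shared in 27.8%, below the 44.4% of the eighth group. At 2 ug the second group was then shared in 78.5% and the ninth in 41.5%. Scores and widths were weakly related over all peaks of a list (Spearman rho 0.3 over 5862 peaks at 20 ug and 0.19 over 2698 at 2 ug, given as descriptions).

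**Figure D2:**
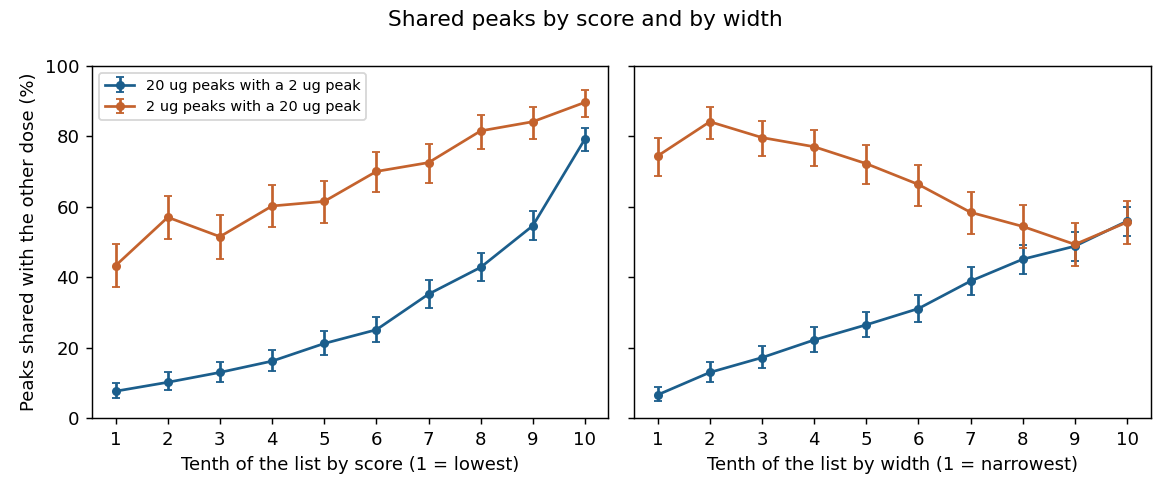
Percent of peaks shared with the other dose, for 10 groups of nearly equal size by score (left) and by width (right), with exact 95% intervals. By score the shares run from 7.67 to 79.2% at 20 ug and from 43.3 to 89.6% at 2 ug; by width they run upward at 20 ug, from 6.64 to 55.9%, and downward at 2 ug, from 84.1% in group 2 to 49.3% in group 9.

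The order of the sites was alike in part. Over the 1788 pairs the scores at both doses had a Spearman rho of 0.52 and the widths one of 0.58, as descriptions of peaks that share the genome's mappability and the authors' filter. Within the 19 chromosomes with at least 50 pairs, rho of the scores ran from 0.19 to 0.77 with a median of 0.59. Of the 10 strongest 20 ug peaks, 10 were shared, and of the 10 strongest 2 ug peaks, 9. Of the 100 strongest 2 ug peaks 94 were shared, and 39 of them had a partner among the 100 strongest at 20 ug. Of those 94, 76 had a partner among the 1000 strongest at 20 ug, and the others had partners of lower rank.

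The 5 strongest 20 ug sites were each narrower at 2 ug, and each was also narrower in the transient library, at the higher amount of guide, than in the 20 ug list. The second strongest 20 ug peak, at chr15:101156093-101157328 (score 1600.11, 1236 bp), was the fifth strongest at 2 ug (920.25, 625 bp). It was listed in the other 20 ug library (1040.17), the transient library (1238.54) and at 0.2 ug (137.79), but not at 0.02 ug. The third, at chr3:90416491-90418674, scored 1506.76 over 2184 bp at 20 ug and 825.75 over 1180 bp at 2 ug. The fourth, at chr1:189138288-189139648, scored 1305.14 over 1361 bp and 786.63 over 493 bp. The fifth, at chr8:11757486-11758841, scored 1263.68 over 1356 bp and 882.55 over 711 bp, and had no peak at either lower dose. Of the 5 strongest 20 ug peaks, the first, at chr11:119055138-119056450, had the lowest rank at 2 ug, 206 of 2698. It was 1313 bp wide at 20 ug and 621 bp at 2 ug, and like the fifth had no peak at 0.2 or 0.02 ug. In the transient library these sites were 770 bp (chr11), 697 bp (chr15), 1653 bp (chr3), 553 bp (chr1) and 729 bp (chr8) wide, each between the 2 ug and the 20 ug width. The scale of the score may differ from list to list, so scores are set side by side and no change is read from them.

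The strongest sites at 2 ug were near the top at 20 ug as well. The highest 2 ug peak, at chr2:144352882-144353690, scored 1516.93 and ranked 8 at 20 ug (1119.84). It ranked 10 in the other 20 ug library (1044.96) and 382 in the transient library (328.41). The second, at chr6:52167208-52168105, ranked 6 at 20 ug and was the only one of the 5 with a peak at 0.02 ug. The third, at chr6:53744339-53745068, ranked 17 at 20 ug, and the fourth, at chr1:166548551-166548945, ranked 13. The peak at chr1:166548551 was 395 bp wide at 2 ug and 751 bp at 20 ug. All 5 had a peak at 0.2 ug and in both other libraries given 20 ug of guide.

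Sites found at 20 ug only were absent from the very top of the list. The highest of them, at chr1:120521513-120523868, ranked 53 of 5862 with a score of 717.23. It was listed with 205.47 in the other 20 ug library and with 63.80 in the transient library. The next were chr19:42852222-42852720 (661.01), chr17:49321791-49322537 (657.85), chr17:72223306-72223871 (645.95) and chr1:47225699-47226137 (645.03). All 5 were listed in the other 20 ug library, 4 of them in the transient library, and none at 0.2 or 0.02 ug. The peak at chr1:47225699 ranked 65 in the other 20 ug library with a score of 636.26 and 78 in the 20 ug list.

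Sites found at 2 ug only included a few of the strongest in that list. The highest, at chr8:11555587-11556556, ranked 8 of 2698 with a score of 844.63. It was listed in the other 20 ug library (571.94, rank 93 of 5957) and in the transient library (141.93). The third, at chr1:134096590-134097840 (614.93), was also listed in the other 20 ug library (566.52), in the transient library (836.71, rank 10) and at 0.2 ug (83.26). These 2 sites were thus missing from 1 of the 2 stable 20 ug lists only. The second, at chr17:35195706-35196276 (629.16), and the fourth, at chr16:11175601-11176887 (532.68), were listed in the transient library but in neither stable 20 ug library. The fifth, at chr8:73396965-73397541 (513.52), was in no other Nanog-sg3 list.

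The position at Nanog itself, the gene the guide was named for, was listed at neither dose. It was taken from the peak that Nanog-sg2 and the other 20 ug library of Nanog-sg3 share, at chr6:122655719-122658343, where the latter scored 1472.86. The position was also missing from the transient list and from the lists at doses below 2 ug. Among the Nanog-sg3 lists, only that of the other 20 ug library held it. The nearest 20 ug peak, at chr6:122770109-122771065 (132.27), lay 111.8 kb away. The nearest 2 ug peak was the same site, at chr6:122770289-122771037 (165.51). How the lists were filtered is not known here, so a missing peak is not read as missing binding.

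The lists of other libraries set the 3 kinds of site apart. Of all 20 ug peaks, 62.2% were found in the other 20 ug library. For the shared 20 ug peaks the share was 79.5% (1422 of 1789, 77.5 to 81.3%) and for 20 ug-only peaks 54.6% (2224 of 4073, 53.1 to 56.1%). Of all 2 ug peaks, 56.3% were found there. This split into 79.2% of the shared 2 ug peaks (1435 of 1811, 77.3 to 81.1%) and 9.58% of the 2 ug-only peaks (85 of 887, 7.73 to 11.7%). Most 2 ug sites that were missing from the first stable 20 ug list were thus missing from the other as well. With middles within 200 bp as the rule, the last share was 15.5%.

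The 2 ug-only sites of high score were found in the other 20 ug library no more often than those of low score, with intervals that overlap. With the 2 ug peaks split by score into 4 groups, 11.8%, 7.01%, 9.83% and 8.74% of the 2 ug-only peaks were in the other 20 ug library from the lowest group to the highest. Among shared peaks of the same groups the shares were 78.5%, 77.5%, 79.2% and 80.9%. In the highest group this was 9 of 103 peaks (4.07 to 15.9%) against 463 of 572 (77.5 to 84.1%). The 2 ug-only peaks of that group were also the widest, with a median of 938 bp against 620 bp. In the 20 ug list, recurrence was higher at higher scores in both classes, with 37.9% in the lowest group and 70.4% in the highest for 20 ug-only peaks, and 44.6% and 89% for shared peaks.

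In the transient library many of the 2 ug-only sites were listed. Of all 20 ug peaks 78.7% and of all 2 ug peaks 78.1% were found there, in a list of 16119 peaks. The shares were 94.9% for shared 20 ug peaks (93.8 to 95.9%), 71.6% for 20 ug-only peaks (70.2 to 73%) and 44.8% for 2 ug-only peaks (397 of 887, 41.5 to 48.1%). Over both libraries that took no part in the split, 76.6% of shared 20 ug peaks were in both, against 44% of 20 ug-only peaks. Of the 2 ug-only peaks 6.43% were in both and 52.1% (462 of 887) in neither. The transient list is longer than that of the other 20 ug library (5957 peaks) and came from cells that were given dCas9 in another way. On chromosome 14 it held 303 peaks, 1.88% of the list, against 4.37% of the 20 ug list and 4.89% of the 2 ug list. The part of these differences in the shares was not tested.

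**Figure D3:**
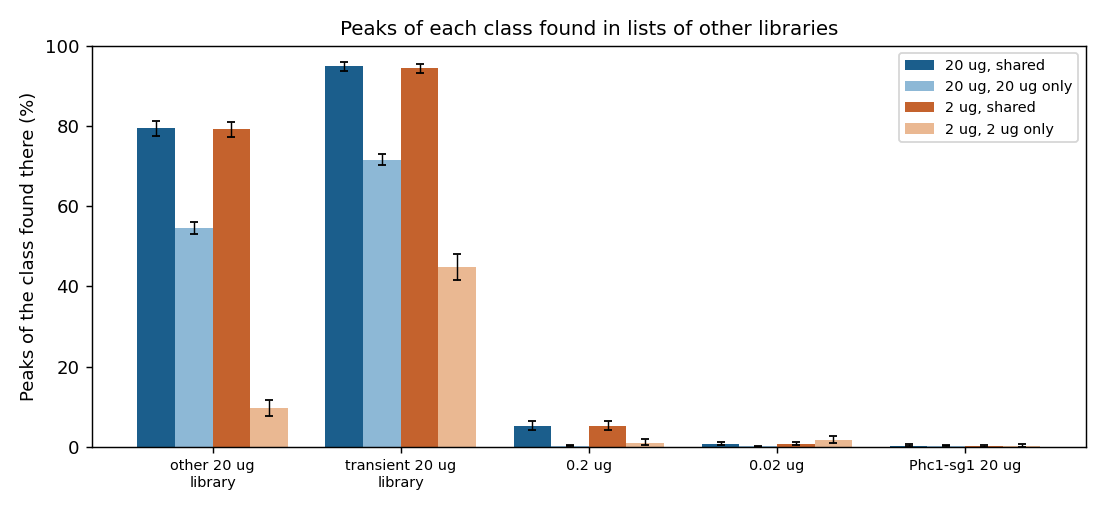
Percent of the peaks of each class that were found (1 bp or more) in the lists of libraries outside the comparison, with exact 95% intervals. In the other 20 ug library 79.5 and 79.2% of shared peaks were found, 54.6% of 20 ug-only and 9.58% of 2 ug-only peaks; bars for Phc1-sg1, another guide, are near 0.

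The 2 ug sites that were also listed at 0.2 ug were nearly all listed at 20 ug as well, whereas 15 of the 29 that met a 0.02 ug peak were not. Of all 20 ug peaks 1.74% and of all 2 ug peaks 3.82% met a peak of the 0.2 ug list, which holds 166 peaks. Of the 103 peaks at 2 ug that did, 94 were also listed at 20 ug (91.3%, 84.1 to 95.9%). At 0.02 ug, where 122 peaks were listed, 0.324% of the 20 ug peaks and 1.07% of the 2 ug peaks were met. Of those 29 peaks at 2 ug, 14 were also listed at 20 ug and 15 were 2 ug-only (48.3% shared, 29.4 to 67.5%). The first share lay above the 67.1% of all 2 ug peaks, and the interval of the second held it. A 0.02 ug peak was met by 1.69% of 2 ug-only peaks (0.95 to 2.77%) and by 0.773% of shared 2 ug peaks (0.423 to 1.29%), whose intervals overlap.

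Sites lay closer together in the whole 20 ug list than at 2 ug, and further apart among as many of the strongest 20 ug peaks. The distance from the middle of a peak to that of the nearest other peak of its list had a median of 68.9 kb at 20 ug (65.8 to 72.7 kb) and 105.7 kb at 2 ug (98.1 to 115.3 kb). For as many of the strongest 20 ug peaks as at 2 ug, the median was 141.6 kb (133.5 to 151.1 kb). Those peaks were picked by score, so they are not an even thinning of the 20 ug list. The other 20 ug library, with slightly more peaks, had a median of 77.5 kb (73.2 to 82 kb), above that of the 20 ug list. A neighbour within 10 kb was found for 13% of 20 ug peaks (12.1 to 13.8%) and 11.3% of 2 ug peaks (10.1 to 12.6%). Of the equally many strongest 20 ug peaks it was found for 6.78% (5.86 to 7.8%). Within 2 kb the order was 2.08%, 2.97% and 0.741%. With a score of at least 100 in all lists the medians were 98000 bp at 20 ug (3987 peaks) and 168000 bp at 2 ug (1767 peaks). The 20 ug list was still the longer one under this minimum.

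**Figure D4:**
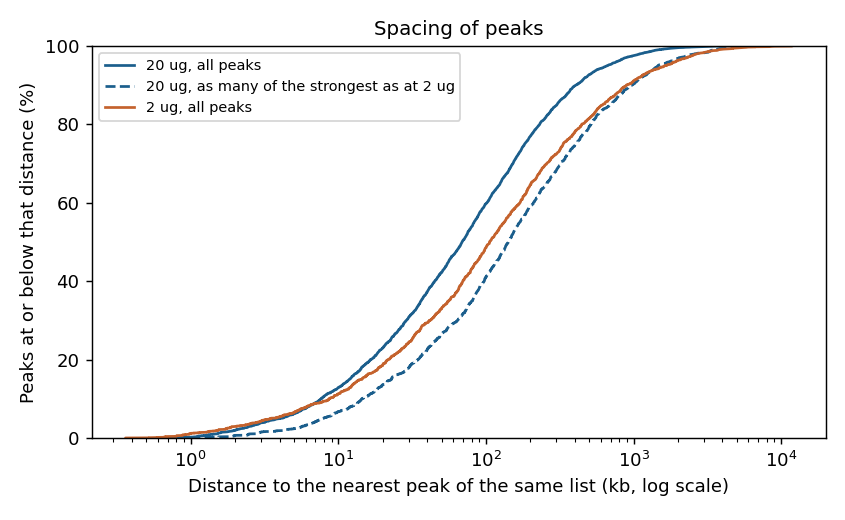
Cumulative percent of peaks by the distance in kb, on a log scale, from the middle of each peak to the nearest other peak of the same list. The 20 ug list has the shortest distances (median 68.9 kb), and the same number of strongest 20 ug peaks as at 2 ug (dashed) the longest (141.6 kb), with the 2 ug list between them (105.7 kb).

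Shared sites sat in somewhat denser neighbourhoods of the 20 ug list. Their nearest 20 ug peak was 56.1 kb away at the median (51 to 62.4 kb), against 74.8 kb (70.1 to 79.7 kb) for 20 ug-only peaks. In the 2 ug list the order was the other way, with 113.8 kb (101.8 to 126.6 kb) for shared and 93.9 kb (82.9 to 106.4 kb) for 2 ug-only peaks, and these intervals overlap. Where the nearest 20 ug peak lay within 10 kb and was itself shared, 41.2% of peaks were shared (105 of 255, 35.1 to 47.5%). Where that neighbour was 20 ug-only, 29.8% were (150 of 504, 25.8 to 34%). The difference was smaller at any distance, with 34% (31.8 to 36.2%) against 29% (27.6 to 30.4%). Beyond 100 kb it was 29.2% (25.7 to 32.9%) against 25.6% (23.6 to 27.7%), with intervals that overlap. At 2 ug within 10 kb the shares were 71.8% (65.2 to 77.9%) beside a shared and 57.6% (47.2 to 67.5%) beside a 2 ug-only neighbour, and these intervals overlap too. Peaks that are each other's nearest neighbour were counted from both sides. The intervals by neighbour, at both doses, thus treat linked peaks as independent and are too narrow, so no difference is read from intervals that lie apart.

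Unshared sites were seldom near misses. Of the 887 peaks found at 2 ug only, 25 (2.82%, 1.83 to 4.13%) had a 20 ug peak within 1 kb of their edge, and 162 (18.3%) had one within 10 kb. The median gap was 49.1 kb (43.9 to 54.4 kb). Of the 20 ug-only peaks, 30 (0.737%, 0.498 to 1.05%) had a 2 ug peak within 1 kb, and the median gap was 168.4 kb (160.5 to 180.8 kb). A rule that allowed gaps of up to 1 kb would thus move few peaks into the shared class. Up to 10 kb it would move 18.3% of the 2 ug-only and 6.61% of the 20 ug-only peaks.

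On the scale of 1 Mb nearly all windows with a 2 ug peak also had a 20 ug peak, but not the reverse. Peaks fell in 1724 windows of 1 Mb at 20 ug and in 1127 at 2 ug, and 1102 windows had a peak at both doses. Peaks of 20 ug alone stood in 622 windows and peaks of 2 ug alone in 25. The 20 ug list is the longer one (5862 against 2698 peaks), and its part in this imbalance was not tested. Windows without a peak at either dose were not counted, so the share of all windows that hold a 20 ug peak is not known here. Over the 1749 windows with a peak at either dose, the counts had a Spearman rho of 0.65, as a description. The window with the most peaks was the same at both doses, chromosome 10 between 80 and 81 Mb, with 22 peaks at 20 ug and 16 at 2 ug, of which 13 of the 20 ug peaks were shared. The other 20 ug library had 13 peaks there. This window was singled out after its values were seen. The closest neighbours at 20 ug, at chr6:144429035-144429771 and chr6:144429818-144430190, had middles 601 bp apart and were both 20 ug-only. The closest at 2 ug, at chr4:141148782-141149127 and chr4:141149236-141149397, were 362 bp apart and lay in shared sites. The longest stretch without a peak was on chromosome X in both lists, chrX:112017433-130830609 at 20 ug (18.81 Mb) and chrX:108810942-131119849 at 2 ug (22.31 Mb). The other 20 ug library had 4 peaks in the former and 7 in the latter.

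The peaks were spread over all autosomes at both doses, in nearly the same order of numbers (Spearman rho 0.96 over 21 chromosomes, as a description, since chromosomes differ in length). Chromosome 1 held the most at both, 455 at 20 ug and 223 at 2 ug. The ratio of 20 ug to 2 ug peaks was 2.15 over all autosomes. It ran from 1.81 on chromosome 7 (384 against 212) to 2.81 on chromosome 3 (247 against 88). On chromosome X it was 4.48, with 103 peaks at 20 ug and 23 at 2 ug. X thus held 1.76% of the 20 ug list (1.44 to 2.13%) and 0.852% of the 2 ug list (0.541 to 1.28%), and 1.71% of the other 20 ug library. Chromosome Y had 1 peak at 20 ug, at chrY:145587-146159 (64.17), and none at 2 ug.

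The share of 20 ug peaks kept at 2 ug was lowest on chromosome X and highest on chromosome 15, among the 20 chromosomes with at least 50 peaks. These extremes depend on the setting, with chromosome 7 highest under the 50% rule and 17 highest with the other 20 ug library. For equally many of the strongest peaks, where X had too few peaks to enter, chromosome 2 was lowest. It was 18.4% on X (19 of 103, 11.5 to 27.3%) and 35.2% on 15 (93 of 264, 29.5 to 41.3%), with 35.2% on chromosome 7 as well. Over all autosomes it was 30.7% (29.5 to 31.9%), and chromosome 3 was the lowest of them with 24.3% (19.1 to 30.1%). X and 3 were the 2 chromosomes whose interval did not hold the 30.5% of all peaks, and the intervals are not adjusted for 20 chromosomes. X peaks at 20 ug were narrower than autosomal ones (median 811 against 948 bp) and scored a little lower (123.23 against 134.68). Above the median score of the list 34.7% of X peaks were kept (17 of 49, 21.7 to 49.6%) and 47.6% of autosomal peaks (45.8 to 49.4%), and below it 3.7% (0.452 to 12.7%) and 13.8% (12.6 to 15.2%). X had the lower value in both, although the intervals of the upper pair overlap, as do those of the lower pair. In the other 20 ug library 16.7% of X peaks were kept (10 to 25.3%) against 25.4% on autosomes (24.3 to 26.5%), and these intervals overlap.

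In the other direction chromosome X did not stand low. Of its 23 peaks at 2 ug, 19 were listed at 20 ug (82.6%, 61.2 to 95%), within a wide interval. Among autosomes the share found at 20 ug ran from 58.1% on chromosome 8 (104 of 179, 50.5 to 65.4%) to 77.9% on chromosome 19 (60 of 77, 67 to 86.6%). Chromosome 8 was the 1 chromosome whose interval did not hold the 67.1% of all 2 ug peaks. It also had a wide median at 2 ug, 731 bp, against 592 bp for the whole list. Chromosome 14 had a similar median, 734 bp, with 63.6% found at 20 ug (54.8 to 71.8%), an interval that held the 67.1%.

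**Figure D5:**
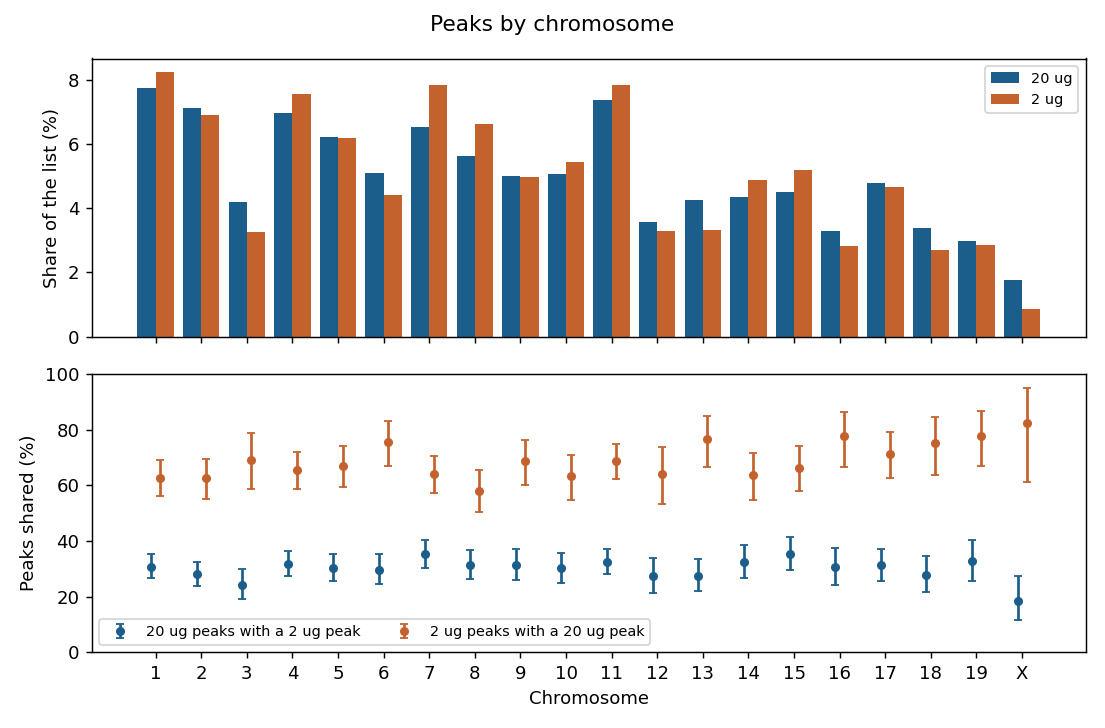
Share of each list by chromosome (top, percent) and percent of peaks shared with the other dose by chromosome with exact 95% intervals (bottom); chromosome Y, with 1 peak, is not drawn. The share kept at 2 ug runs from 18.4% on X to 35.2% on 7 and 15, and the share of 2 ug peaks found at 20 ug from 58.1% on 8 to 82.6% on X.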

How the data were processed

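HA-dCas9 ChIP-seq peak lists of 2 Nanog-sg3 libraries were compared, and 8 other mouse lists were used for reference. Bowtie is the aligner and mm9 the mouse build named in the submitters' processing notes. Peak names begin with MACS, per the files. The version, control and filter of the peak calling are not stated in the labels or files, and each list belongs to 1 sample, with no pooling stated. The deposited score in column 5 is the authors', has no header, and was at least 50.07 at 20 ug and 50.19 at 2 ug. The sixth column held 10 in every row of both lists, and no source says what it is.

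Overlaps, widths, gaps and medians were computed with python 3.11.15, pandas 2.3.3, numpy 2.4.6 and scipy 1.17.1. Starts were taken to count from 0. The overlap steps were tested on simulated lists with planted peaks. Groups came from the labels. Members, lists and rules were chosen with earlier results of these data known. Named positions are the 5 strongest peaks of each list and of each unshared class, the widest peaks, the closest and most distant neighbours, the Nanog position and the chromosomes with the highest and lowest share kept. Other positions and chromosomes, such as 3, 8 and Y, the densest window and the pair of largest width ratio, were singled out after their values were seen. The alternatives were other rules for sharing, a score of at least 100, merging within 500 bp, equal list sizes and the other 20 ug library. Chosen after seeing the data were the groups by score within chromosomes, the ratios of class widths and the run without chromosome X. No gene annotation or genome of mm9 was used here, so no sequence is printed. The labels do not say whether the 20 ug libraries came from separate cultures.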

Additional observations from a re-analysis of the deposited data

How the results depend on the processing

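The share of 20 ug peaks with a 2 ug peak, 30.5%, was 13.8% with 50% of both peaks shared, 23.0% with middles within 200 bp, 27.0% with 400 bp windows and 49.6% for equally many of the strongest. The share of 2 ug peaks with a 20 ug peak, 67.1%, was 29.9%, 50%, 58.8% and 50.3% under these, and 69.9% with a score of at least 100. The median width ratio of 2.09 was 1.6 with 50% shared and 1.91 with middles within 200 bp. A peak narrower than 50% of its partner cannot meet the 50% rule. The ratio under that rule was thus capped in advance and is no check on the 2.09, and the shares under it also reflect width. Median nearest-peak distance at 20 ug, 68900 bp, was 98000 bp with a score of at least 100 and 142000 bp for equally many peaks, and at 2 ug 168000 bp with that score. The other 20 ug library recovered 54.6% of 20 ug-only peaks, which was 56.3%, 46.1%, 51.9% and 50.9% with 50% shared, middles, windows and the score minimum. Its 9.58% of 2 ug-only peaks was 11.7%, 15.5% and 14.2% under the former 3. With 50% shared, the ratio of median widths of 2 ug-only over shared peaks turned to 0.81. Without 20 ug replicate 2, using the other library, the shares were 25.2% and 56.3% and the 20 ug distance 77500 bp. The gap between chromosomes in the share kept, 16.8 percentage points, had bounds of 2.17 and 29.8 from the intervals of the chromosomes picked as extremes. Those bounds held 0 without chromosome X (10.9, -0.662 to 22.2), with 50% shared (8.97, -1.92 to 17.8), with middles within 200 bp (11.7, -2.45 to 24.4) and with windows (14.0, -0.319 to 26.7). No paired analysis was possible because the labels give no replicate numbers and 2 ug has 1 library. Read depth is unknown, so its part in list length and width was not tested.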

Other observations

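The scores within a list differed between chromosomes. At 20 ug the median score ran from 106.05 on chromosome 12 to 179.48 on chromosome 19, a ratio of 1.69, and at 2 ug from 82.29 on chromosome 12 to 198.92 on chromosome 14, a ratio of 2.42. Chromosome 14 had a median of 113.28 at 20 ug, while it had the highest at 2 ug (Spearman rho 0.32 over 20 chromosomes, as a description). In the other 20 ug library the highest median was on chromosome 4 (140.94) and the lowest on chromosome 14 (91.16).

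The numbers in the peak names had gaps. The numbers jumped from 3764 to 10000 at 20 ug and from 2104 to 10000 at 2 ug. At 2 ug 99.3% of the peaks had a number that begins with 1, against 80.3% at 20 ug. Of the 20 ug peaks 2228 (38%) and of the 2 ug peaks 836 (31%) carried a name that occurs more than once in the list, and 819 of the 906 repeated names at 20 ug stood on more than 1 chromosome. No peak overlapped another peak of its own list. No source says whether the names and scores of a list come from 1 run of the peak caller, so it is not known whether they are on 1 scale.

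The peak with the largest ratio of widths lay at chr11:31268178-31270442, with 2265 bp at 20 ug and 183 bp at 2 ug, a ratio of 12.4. It was absent from the other 20 ug library and scored 365.52 in the transient library.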
